A study of Mus musculus with 10 samples.

Results

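Heat shock proteins and their cochaperones were followed as newly made RNA in mouse embryonic stem cells. The members are the rows of the deposited intronic table whose symbols belong to the Hsp70, Hsp110, Hsp90, small heat shock protein, DNAJ, CCT chaperonin, mitochondrial chaperonin, BAG and heat shock factor families. Hspa5, an Hsp70 gene with a row of its own, was left out of the members. The members came to 77 rows of 24901, with 76 symbols, because Hspa14 stands on 2 rows. The rule goes by name and uses no measured value, but it was set with earlier results of these data known. Hspa8 is covered, while Hspa1a and Hspa1b have no member row and are not analysed here.

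Bru-seq was used, in which cells briefly take up bromouridine (BrU), an antibody pulls out the RNA that holds it, and the captured RNA is sequenced, so that reads in introns follow transcription at that moment. All cells were mouse embryonic stem cells grown with LIF, 1 µM of the MEK inhibitor PD0325901 and 3 µM of the GSK3 inhibitor CHIR99021, and all received 2 mM BrU for 10 min. The 10 samples form 5 groups of 2. EloA_K754M and EloA_K754R cells carry edited Elongin A, part of a factor that helps RNA polymerase II elongate, with lysine K754 replaced by methionine or arginine, and EloA_WT cells have the unedited protein. Eed_null cells lack Eed, which the histone H3 methylating Polycomb repressive complex 2 needs, and CJ7_WT is a wild-type line. The 6 Elongin A libraries have a column each, while Eed_null and CJ7_WT have 1 pooled column each, with no spread between replicates. Nothing says whether the samples of a group are separate cultures or clones, so p-values measure the spread between these samples, which may be technical.

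The labels limit the groups as models. The line field names CCE28 for EloA_WT and Eed_null and CJ7 for the others, while the growth protocol names CJ7 throughout. If the field is right, edit and line cannot be told apart in the comparisons with EloA_WT, nor can loss of Eed and line. One protocol describes growth on mouse fibroblasts that were plated off before use and another describes feeder-free dishes. The genotype field of the Eed_null samples reads EloA null. Titles and column names were followed here.

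Chaperones bind unfolded protein and release it in cycles driven by ATP. Hsp70 proteins receive clients from DNAJ proteins, which also start ATP hydrolysis, and BAG and Hsp110 proteins then exchange the nucleotide. Hsp90 finishes many kinases and receptors, the CCT ring folds actin and tubulin, and small heat shock proteins hold unfolded protein without ATP. In heat or proteotoxic stress the factor Hsf1 binds repeats of the letters GAA and TTC in promoters of inducible members such as Hsph1, Dnajb1 and Hspe1. Many DNAJC members serve a single organelle or task.

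RPKM here is reads in the introns of a gene, scaled by intron length and library depth. Read steps are the whole multiples of the smallest RPKM that 1 counted read or read pair gives a gene, and they came to between 27099647 and 39950444 per Elongin A library, 73967740 in pooled Eed_null and 89125281 in pooled CJ7_WT. Some steps are read pairs and others single mates, so a count carries an uncertainty of up to 2-fold and intervals cover counting error only. Of the members, 55 had at least 100 steps in each of the 6 libraries and 8 stayed under 20 in all of them. The gene of Elongin A, Tceb3, stood at 1.46 and 1.98 RPKM in EloA_K754M, 1.12 and 1.305 in EloA_K754R and 1.83 and 2.03 in EloA_WT, and Eed at 7.97 RPKM in pooled Eed_null and 10.02 in pooled CJ7_WT. Reads in introns cannot show the edit of K754, and the Eed lesion is not given in the sources used here. Stem cell markers were present, with 9 genes summing to between 194 and 351 RPKM in the 6 libraries, 151 in Eed_null and 180 in CJ7_WT, and none at 0.

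Levels differed among members by 3 orders of size. Mean RPKM in EloA_WT ran between 0.0688 for Hspa1l and 81.5 for Hspa8, with 12 members above 10, 38 between 1 and 10 and 27 under 1. The highest were Hspa8, the constitutive cytosolic Hsp70, at 76.9 and 86.1 RPKM, and Hsp90ab1, the constitutive Hsp90, at 49.8 and 66.05. Then came the CCT subunit gene Cct4 at 31.3 and 32.2, the mitochondrial chaperonin gene Hspd1 at 21.01 and 23.6, the mitochondrial Hsp70 gene Hspa9 at 18.6 and 22.6 and the Hsp110 gene Hspa4 at 17.04 and 20.9. Neighbours in this order from Hspd1 to Hspa4 overlap between libraries. The value of Hspa8 rests on 92 and 87 steps only, since the counted intron sequence is short, and its introns hold the small nucleolar RNA genes Snord14c, Snord14d and Snord14e. The introns of Cct6a hold Snora15. The heat shock factors were transcribed at 1.75 and 1.85 RPKM for Hsf1 and 3.95 and 3.66 for Hsf2.

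**Figure D1:**
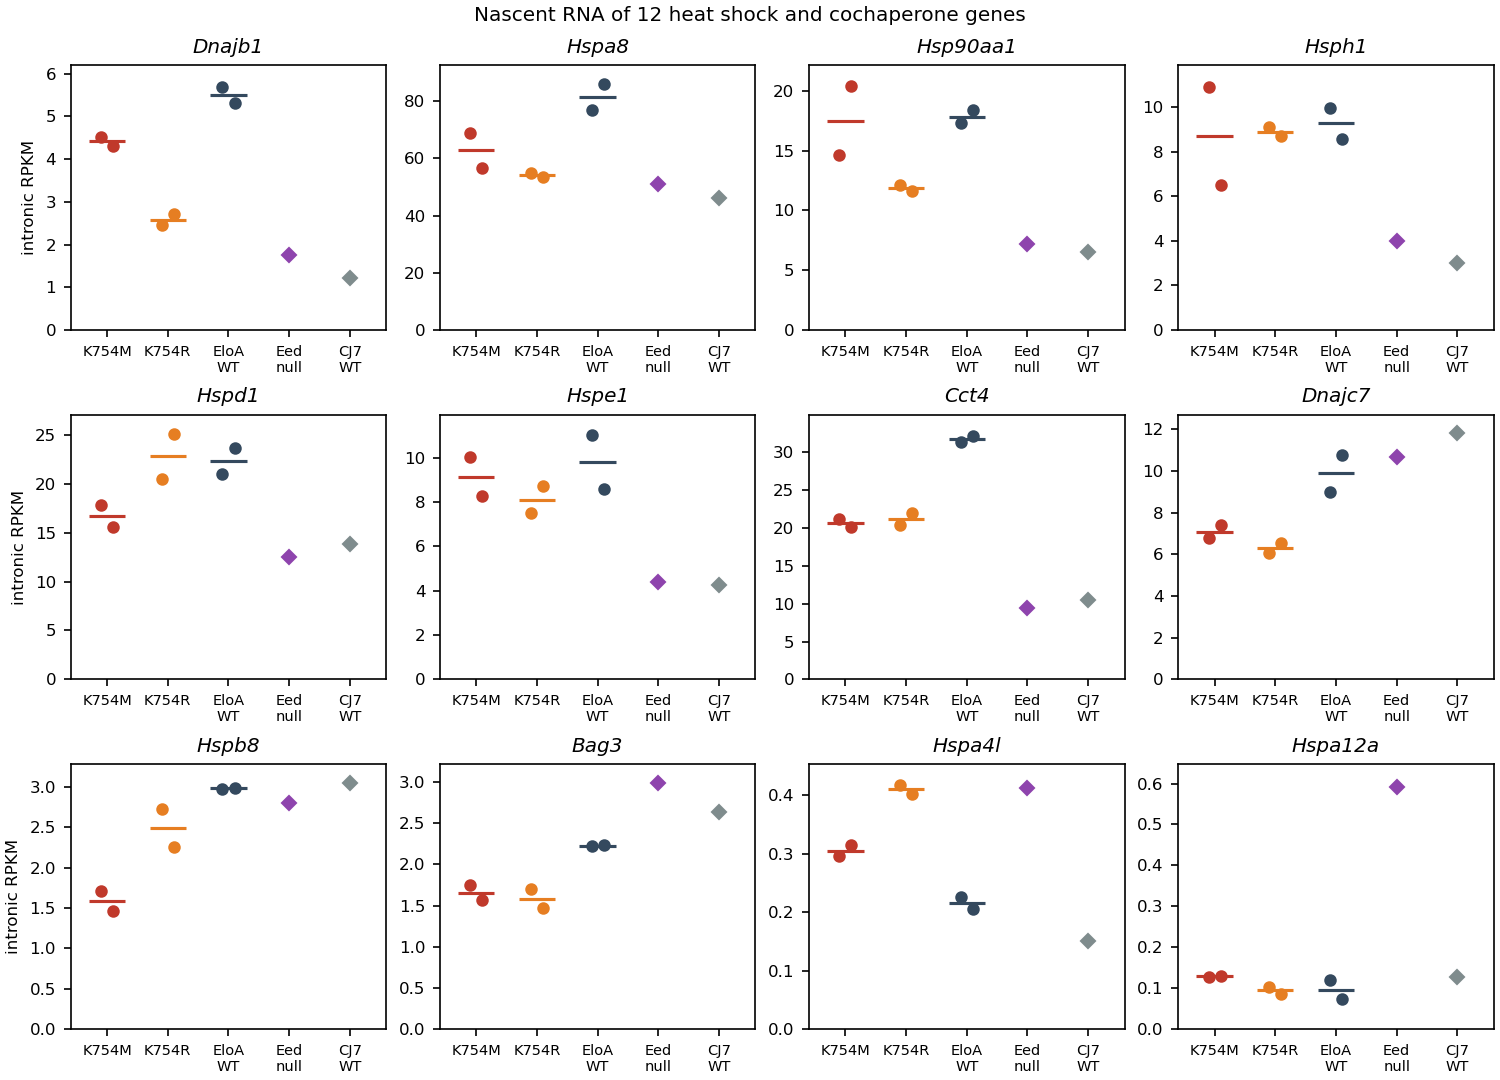
Intronic RPKM (vertical axes, from 0) of 12 members in EloA_K754M, EloA_K754R and EloA_WT libraries (dots, 2 per group, bar at their mean) and in the pooled Eed_null and CJ7_WT columns (diamonds, 1 value each). Dnajb1 is lowest in EloA_K754R among the Elongin A groups, at 2.45 and 2.70 RPKM, and Hspa12a stands apart in Eed_null, at 0.591 RPKM.

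The question of EloA_K754M against EloA_WT is how methionine at K754 changes transcription. None of the 74 tested members passed the test, limma with Benjamini-Hochberg adjustment over 15161 genes, of which it called 0.218% (0.0132% higher and 0.204% lower). All genes called numbered 33, but between 2 and 52 without any 1 library and 347 with voom. At an unadjusted p under 0.05 stood 10 members (13.5%), against 15.4% of all genes. Changes were negative for 48 members (64.9%), against 57.3% of all genes, and with equal library medians for 32 (43.2%), against 40.8%. Both EloA_K754M libraries lay below both EloA_WT libraries for 26 members (35.1%), against 27.2% of all genes, and above them for 8 (10.8%), against 17%. The median member change was −0.09 on the log2 scale of RPKM + 0.1, against −0.06 for all genes (0.033 and 0.07 with equal library medians), and the 95% interval lay within ±1 for 62 members. Voom on the recovered reads called 2 lower, Cct4 and Hspb8 (2.70% of members, against 2.32% of all genes).

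Hspb8, a small heat shock protein that works with Bag3 in clearing aggregates, had the smallest adjusted p. It stood at 1.71 and 1.47 RPKM in EloA_K754M and 2.98 and 2.99 in EloA_WT, so that the groups did not overlap, with a log2 change of −0.87 (SE 0.14, adjusted p = 0.0920). Its partner Bag3, an inducible member of the BAG family, stood at 1.75 and 1.57 RPKM in EloA_K754M and 2.23 and 2.23 in EloA_WT (−0.41, adjusted p = 0.229). Of the 6 genes placed by symbol among small heat shock proteins, 3 had negative changes. The 6 include Hspb11, a protein of intraflagellar transport. Hspb6 was at 0.140 and 0.341 RPKM in EloA_K754M and 0.587 and 0.948 in EloA_WT (−1.38, adjusted p = 0.193) on 2 and 5 steps in EloA_K754M and 11 and 15 in EloA_WT. Hspb2 had 2 and 6 steps in EloA_K754M and 4 and 0 in EloA_WT, too few to place it. Bag5 stood at 0.698 and 0.419 RPKM in EloA_K754M and 0.615 and 1.02 in EloA_WT (−0.48), on at most 21 steps a library.

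The log2 changes of all 8 CCT genes among the members were negative in EloA_K754M (median −0.28). Of these, 7 were negative with equal library medians and 6 relative to the chromosome median. For 6 of the 8 both EloA_K754M libraries lay below both EloA_WT libraries (27.2% of all genes). The CCT subunit gene Tcp1 is outside the member names and had a change of −0.12. None passed the test. Cct4 stood at 21.2 and 20.2 RPKM in EloA_K754M and 31.3 and 32.2 in EloA_WT (−0.62, SE 0.14, adjusted p = 0.138), and Cct6b, the subunit known from testis, at 0.136 and 0.288 RPKM in EloA_K754M and 0.421 and 0.506 in EloA_WT (−0.89, adjusted p = 0.241). Both lie on chromosome 11, and the other 6 of these 8 members had changes between −0.34 for Cct5 and −0.04 for Cct3.

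Of the 7 tested Hsp70 members 6 had negative changes, and 5 with equal library medians. Hspa8 stood at 68.97 and 56.6 RPKM in EloA_K754M and 76.9 and 86.1 in EloA_WT (−0.38, adjusted p = 0.469). The Hspa14 row ENSMUSG00000079615 stood at 4.93 and 4.27 RPKM in EloA_K754M and 6.30 and 5.88 in EloA_WT (−0.40), and the row ENSMUSG00000051396 at 3.69 and 3.60 RPKM in EloA_K754M and 4.08 and 4.02 in EloA_WT (−0.15); the counting may split their reads. Hspa2, known from testis, had at most 5 steps in a library (−1.42). Among Hsp110 genes, Hspa4 stood at 15.5 and 16.1 RPKM in EloA_K754M and 17.04 and 20.9 in EloA_WT (−0.25), Hspa4l at 0.296 and 0.314 RPKM in EloA_K754M and 0.225 and 0.205 in EloA_WT (0.36, adjusted p = 0.402), and the inducible Hsph1 at 10.9 and 6.53 RPKM in EloA_K754M and 9.96 and 8.60 in EloA_WT (−0.13). The 2 EloA_K754M libraries lie on either side of EloA_WT for Hsph1.

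Hsp90ab1 differed most between libraries of one group among the abundant members, with 43.8 and 91.04 RPKM in EloA_K754M against 49.8 and 66.05 in EloA_WT (0.14, SE 0.39), which overlap. The inducible Hsp90aa1 stood at 14.6 and 20.4 RPKM in EloA_K754M and 17.3 and 18.4 in EloA_WT (−0.05). Hspd1 was at 17.8 and 15.6 RPKM in EloA_K754M and 21.01 and 23.6 in EloA_WT (−0.42, adjusted p = 0.331), and its partner Hspe1 at 10.03 and 8.27 RPKM in EloA_K754M and 11.04 and 8.60 in EloA_WT (−0.10). The signs of Hsp90aa1 and Hspe1 turn with equal library medians. Hsf1 stood at 1.77 and 1.68 RPKM in EloA_K754M and 1.75 and 1.85 in EloA_WT and Hsf2 at 3.48 and 2.95 RPKM in EloA_K754M and 3.95 and 3.66 in EloA_WT, with log2 changes of −0.06, which also turns with equal medians, and −0.24 (adjusted p = 0.838 and 0.449).

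DNAJ genes were split in sign, with 3 of 4 DNAJA, 4 of 10 DNAJB and 13 of 24 DNAJC changes negative. With equal library medians 3 DNAJA, 3 DNAJB and 5 DNAJC changes were negative. The largest among DNAJA were −0.20 for Dnaja1, at 9.68 and 6.99 RPKM in EloA_K754M and 10.2 and 8.83 in EloA_WT, and −0.19 for the mitochondrial Dnaja3, at 0.976 and 0.946 RPKM in EloA_K754M and 1.11 and 1.11 in EloA_WT. Dnajb9, of the endoplasmic reticulum, stood at 1.62 and 1.69 RPKM in EloA_K754M and 2.72 and 2.37 in EloA_WT (−0.59, adjusted p = 0.294) and Dnajb4 at 1.48 and 1.02 RPKM in EloA_K754M and 1.11 and 0.769 in EloA_WT (0.38). The heat-inducible Dnajb1 stood at 4.53 and 4.31 RPKM in EloA_K754M and 5.68 and 5.31 in EloA_WT (−0.31, adjusted p = 0.291). Among DNAJC, Dnajc28 rested on at most 9 steps (−0.50), and Dnajc7, which passes clients between Hsp70 and Hsp90, stood at 6.78 and 7.40 RPKM in EloA_K754M and 8.97 and 10.8 in EloA_WT (−0.47, adjusted p = 0.208).

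**Figure D2:**
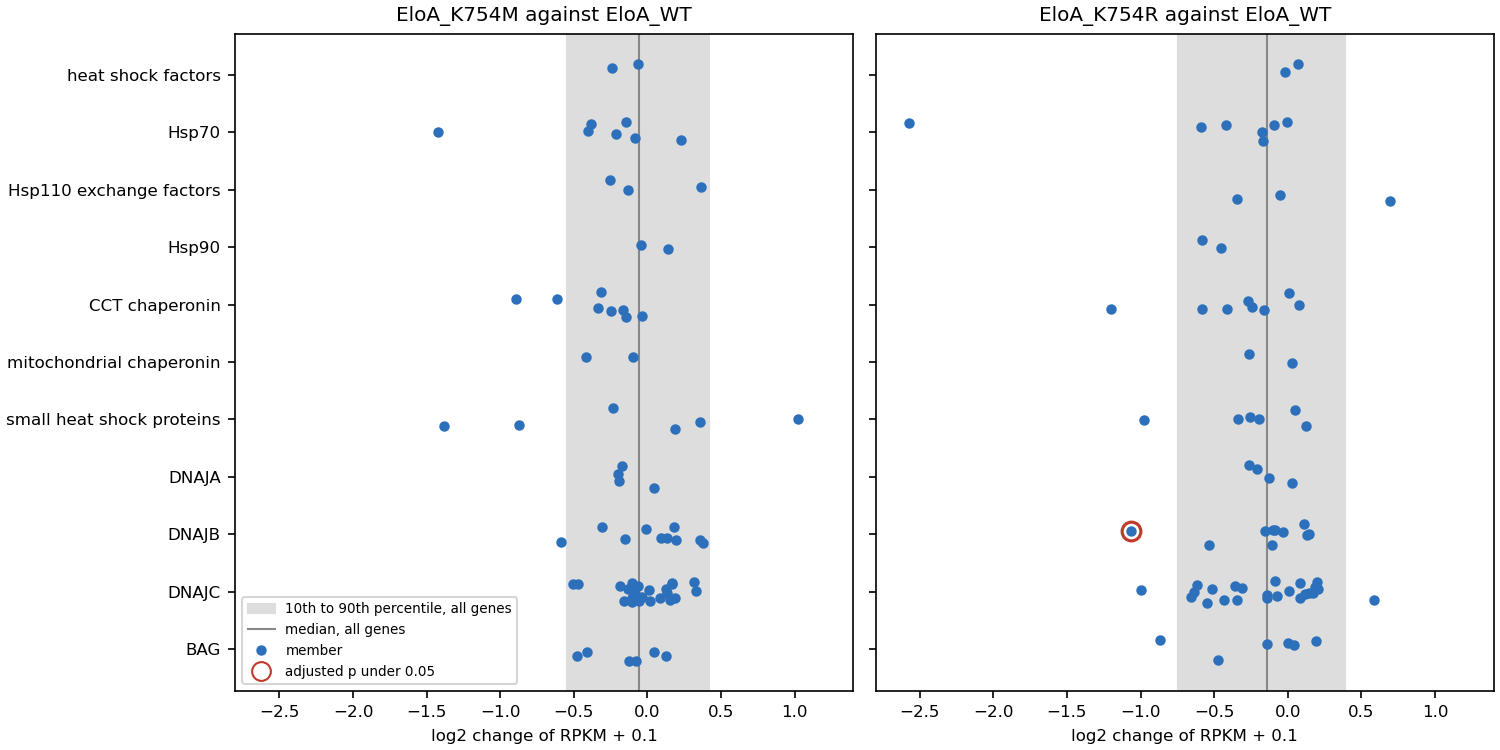
Log2 change of RPKM + 0.1 (horizontal axes) for each tested member by role, in EloA_K754M (left) and EloA_K754R (right) against EloA_WT. Grey bands span the 10th to 90th percentile of all 15161 genes, grey lines their medians (−0.06 and −0.14), and the red ring marks Dnajb1, the 1 member with an adjusted p under 0.05.

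Transcription of Dnajb1 fell in EloA_K754R against EloA_WT, a comparison in which edit and line cannot be told apart if the line field is right. This gene encodes the inducible cytosolic DNAJ partner of Hsp70. It stood at 2.45 and 2.70 RPKM in the EloA_K754R libraries and 5.68 and 5.31 in EloA_WT, and averaged 2.58 ± 0.180 RPKM in EloA_K754R and 5.49 ± 0.259 RPKM in EloA_WT (SD, n = 2 each). The log2 change was −1.06 (SE 0.11, 95% interval −1.35 to −0.78, limma adjusted p = 0.0247), on 50 and 74 read steps in EloA_K754R and 138 and 109 in EloA_WT. The EloA_K754M libraries lay between these groups, and no value of one group overlapped another. The call ended when any 1 of the 6 libraries was left out (adjusted p between 0.0781 and 0.164), each such fit having fewer residual degrees of freedom, with only the 2 groups compared (0.0775), and relative to the median of chromosome 8 (log2 change −0.72, adjusted p = 0.0821). In the other alternatives its adjusted p stayed between 0.0234 and 0.0414.

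The sequence before the start of Dnajb1 was read from RefSeq beside those of 3 members that hold 3 alternating heat shock units, to set an inducible member that fell beside members that hold these units and were not called. Each run is the 250 bases before the first annotated start, 5′ to 3′ on the strand of the gene, in GRCm38.p6. Capitals mark GAANNTTC or TTCNNGAA, pairs of adjoining heat shock units in either order. For Dnajb1 they also mark the letters CCAAT on the opposite strand. The Hsph1 run holds CCAAT too, on both strands, and there it is left unmarked. The stretches lie at chr8:83607925-83608174 (plus strand) for Dnajb1, chr5:149636337-149636586 (minus) for Hsph1, chr1:55087898-55088147 (plus) for Hspe1 and chr5:29735648-29735897 (plus) for Dnajb6.
Dnajb1: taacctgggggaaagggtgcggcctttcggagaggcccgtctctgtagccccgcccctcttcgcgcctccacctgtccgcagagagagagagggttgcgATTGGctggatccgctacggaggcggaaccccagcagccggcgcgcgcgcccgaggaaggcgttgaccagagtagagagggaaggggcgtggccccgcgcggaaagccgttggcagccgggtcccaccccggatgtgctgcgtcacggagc
Hsph1: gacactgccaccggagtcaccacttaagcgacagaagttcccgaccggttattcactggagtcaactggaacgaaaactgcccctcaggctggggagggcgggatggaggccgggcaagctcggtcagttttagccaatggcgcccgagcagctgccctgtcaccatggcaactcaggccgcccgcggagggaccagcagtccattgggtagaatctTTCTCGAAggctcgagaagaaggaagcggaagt
Hspe1: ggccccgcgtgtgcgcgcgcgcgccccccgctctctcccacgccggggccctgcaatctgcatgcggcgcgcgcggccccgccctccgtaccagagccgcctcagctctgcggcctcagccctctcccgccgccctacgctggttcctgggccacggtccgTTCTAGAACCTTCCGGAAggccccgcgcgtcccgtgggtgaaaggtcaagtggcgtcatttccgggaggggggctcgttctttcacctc
Dnajb6: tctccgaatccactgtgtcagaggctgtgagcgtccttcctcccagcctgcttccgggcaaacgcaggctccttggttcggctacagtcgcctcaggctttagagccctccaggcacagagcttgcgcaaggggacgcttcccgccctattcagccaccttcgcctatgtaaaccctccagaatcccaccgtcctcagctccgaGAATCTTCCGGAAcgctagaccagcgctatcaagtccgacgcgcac
The run of Hspe1 holds 3 overlapping matches that begin 89, 84 and 79 bases before the start, and that of Dnajb6 holds 2 that begin 46 and 41 bases before it. In Hsph1 the match shown begins 33 bases before the start, and its 3-unit match follows the start. The Dnajb1 window holds neither form, which says only that these letters are not in it. Hspe1 and Hspd1 are transcribed away from each other, and 285 bases of the Hspe1 window are also in a window of Hspd1.

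RefSeq windows of 300 bases around the start were found for 61 of the 76 member symbols, as 81 windows. The other symbols had no window and were not searched, among them Hspa8, Hsp90aa1, Hsp90ab1, Hsf1, Cct4 and Hspa9. GAANNTTC stood in windows of 12 genes, in 17.3% of member windows against 7.86% of all 32851, and TTCNNGAA in windows of 8 genes, in 12.3% against 8.52%. The form with 3 alternating units is GAA, TTC and GAA with NN between them, searched on both strands and overlapping both shorter forms. It stood in Dnajb6, Hspd1, Hspe1 and Hsph1, in 7.41% of member windows against 0.603%. The windows of Dnajb6 overlap each other, as do those of Hsph1, and the Hspe1 window shares 285 bases with a window of Hspd1. Sites in shared sequence are thus counted more than once, so these percentages are not shares of separate sites. For Dnajb6, Hspd1, Hspe1 and Hsph1, in this order, the log2 changes in EloA_K754M were −0.15, −0.42, −0.10 and −0.13. In EloA_K754R they were 0.13, 0.03, −0.26 and −0.06. None of them passed the test. Of the genes with GAANNTTC, Bag3, Hspb6 and Hspb8 lay below EloA_WT without overlap in both mutants, as did 18.8% of all genes. Cct2, Dnaja1, Dnaja4, Dnajb6, Dnajc27, Hspb1, Hspd1, Hspe1 and Hsph1 also hold it and did not. Of the genes with TTCNNGAA only Cct6a did. Whether these letters bear on any change was not tested. TATAAA stood in 3.70% of member windows against 13.6% of all, and CCAAT in 34.6% against 37.4%.

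No other member passed the test in EloA_K754R against EloA_WT in this fit. The 1 call of 74 is a share of 1.35%, against 3.48% of all genes (0.686% higher and 2.79% lower). These counts depend on the fit: all genes called numbered 527, but between 1 and 9 without any 1 library and 1 with only the 2 groups, and voom called 6 members (8.11%), against 8.94% of all genes. At an unadjusted p under 0.05 stood 16 members (21.6%), against 25.1% of all genes. Changes were negative for 50 members (67.6%), against 64.3% of all genes, and with equal library medians for 31 (41.9%), against 44.6%. Both EloA_K754R libraries lay below both EloA_WT libraries for 33 members (44.6%), against 38.8% of all genes, and above for 9 (12.2%), against 18%. The median change was −0.14 for members and −0.14 for all genes, and with equal library medians 0.05 for both. The 95% interval lay within ±1 for 58 members. The changes of all 7 tested Hsp70 members were negative, but only 3 with equal library medians. Of the DNAJB changes 7 of 10 were negative, but 2 with equal library medians.

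The heat shock factors stood at 1.91 and 1.88 RPKM in EloA_K754R and 1.75 and 1.85 in EloA_WT for Hsf1 (0.07) and at 3.84 and 3.67 RPKM in EloA_K754R and 3.95 and 3.66 in EloA_WT for Hsf2 (−0.02, positive with equal medians), with 95% intervals of −0.21 to 0.35 and −0.34 to 0.30. Both Hsp90 genes were lower in each EloA_K754R library than in each EloA_WT library, as were 38.8% of all genes. Hsp90aa1 was at 12.1 and 11.6 RPKM in EloA_K754R and 17.3 and 18.4 in EloA_WT (−0.58, adjusted p = 0.131) and Hsp90ab1 at 36.6 and 47.98 RPKM in EloA_K754R and 49.8 and 66.05 in EloA_WT (−0.45, positive with quantile normalization; adjusted p = 0.524). Hspa8 stood at 54.7 and 53.5 RPKM in EloA_K754R and 76.9 and 86.1 in EloA_WT (−0.59, adjusted p = 0.162) and Hspa2 at 0 and 1 steps in EloA_K754R and 3 and 5 in EloA_WT (−2.57, adjusted p = 0.0657).

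Hspa4l, an Hsp110 gene, was the member with the largest positive change. It stood at 0.418 and 0.402 RPKM in EloA_K754R and 0.225 and 0.205 in EloA_WT (0.70, SE 0.18, adjusted p = 0.0853), with no overlap, and voom on recovered reads called it higher. Hspa4 stood at 13.8 and 15.9 RPKM in EloA_K754R and 17.04 and 20.9 in EloA_WT (−0.35) and Hsph1 at 9.12 and 8.69 RPKM in EloA_K754R and 9.96 and 8.60 in EloA_WT (−0.06, positive with equal medians). Hspd1 stood at 20.5 and 25.1 RPKM in EloA_K754R and 21.01 and 23.6 in EloA_WT (0.03) and Hspe1 at 7.53 and 8.71 RPKM in EloA_K754R and 11.04 and 8.60 in EloA_WT (−0.26), both overlapping.

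Of the 8 CCT genes among the members 6 had negative changes (5 with equal library medians, 4 relative to the chromosome median). The change was −0.58 for Cct4 (20.4 and 21.99 RPKM in EloA_K754R and 31.3 and 32.2 in EloA_WT, adjusted p = 0.0776). For Cct6b it was −1.20 (0.125 and 0.164 RPKM in EloA_K754R and 0.421 and 0.506 in EloA_WT, adjusted p = 0.0811). Among small heat shock protein genes, Hspb6 was at 0.254 and 0.427 RPKM in EloA_K754R and 0.587 and 0.948 in EloA_WT (−0.97, adjusted p = 0.196), Hspb1 at 2.41 and 2.02 RPKM in EloA_K754R and 4.38 and 1.80 in EloA_WT (−0.34), and Hspb8 at 2.73 and 2.26 RPKM in EloA_K754R and 2.98 and 2.99 in EloA_WT (−0.25, adjusted p = 0.332). The 2 EloA_WT libraries of Hspb1 lie on either side of EloA_K754R. Bag3 stood at 1.70 and 1.47 RPKM in EloA_K754R and 2.23 and 2.23 in EloA_WT (−0.47, adjusted p = 0.0988), and Bag5 at 0.293 and 0.510 RPKM in EloA_K754R and 0.615 and 1.02 in EloA_WT (−0.87, adjusted p = 0.200).

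No DNAJC gene was called. Dnajc7 stood at 6.08 and 6.52 RPKM in EloA_K754R and 8.97 and 10.8 in EloA_WT (−0.64, adjusted p = 0.0672), Dnajc4 at 0.437 and 0.483 RPKM in EloA_K754R and 0.838 and 0.731 in EloA_WT (−0.66, adjusted p = 0.0744) and Dnajc16 at 0.428 and 0.482 RPKM in EloA_K754R and 0.744 and 0.754 in EloA_WT (−0.62, adjusted p = 0.0741). Upward, Dnajc15, of the mitochondrial import machinery, stood at 1.57 and 2.04 RPKM in EloA_K754R and 1.16 and 1.15 in EloA_WT (0.59, adjusted p = 0.0927). None of these groups overlap. For 13 of 24 DNAJC genes both EloA_K754R libraries lay below both EloA_WT libraries, and for 6 above (all genes 38.8% and 18%). Dnajc28 had 2 and 3 steps in EloA_K754R and 9 and 5 in EloA_WT (−0.99, adjusted p = 0.0863). Dnaja1, Dnaja3 and Dnajb9 had changes of −0.26, −0.21 and −0.54. Voom on the recovered reads called 5 members lower, Dnajb1, Cct4, Cct6b, Dnajc7 and Dnajc16, besides Hspa4l.

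Chromosomes differed in their median change. The 1314 tested genes of chromosome 11 had median changes of −0.46 in EloA_K754M and −0.56 in EloA_K754R. Its 4 members, Cct4, Cct6b, Dnajc7 and Hspa4, lay below EloA_WT in every library of both, as did 18.8% of all genes. The share among all genes of chromosome 11 was not counted. Relative to the library medians of the chromosome, the changes in EloA_K754M were −0.11 for Cct4, −0.39 for Cct6b, 0.035 for Dnajc7 and 0.25 for Hspa4, and in EloA_K754R 0.042, −0.58, −0.012 and 0.28 in the same order of genes, none of them called. On chromosome 4, with a median of −0.30 in EloA_K754R, 4 of 10 tested members were lower without overlap (38.8% of all genes were), among them Dnajc16 (−0.62), Dnajc8 (−0.51) and Dnajc11 (−0.55). Dnajc15 lies on chromosome 14, whose median in EloA_K754R was 0.25. The part of a whole-chromosome shift in these changes was not tested further.

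**Figure D3:**
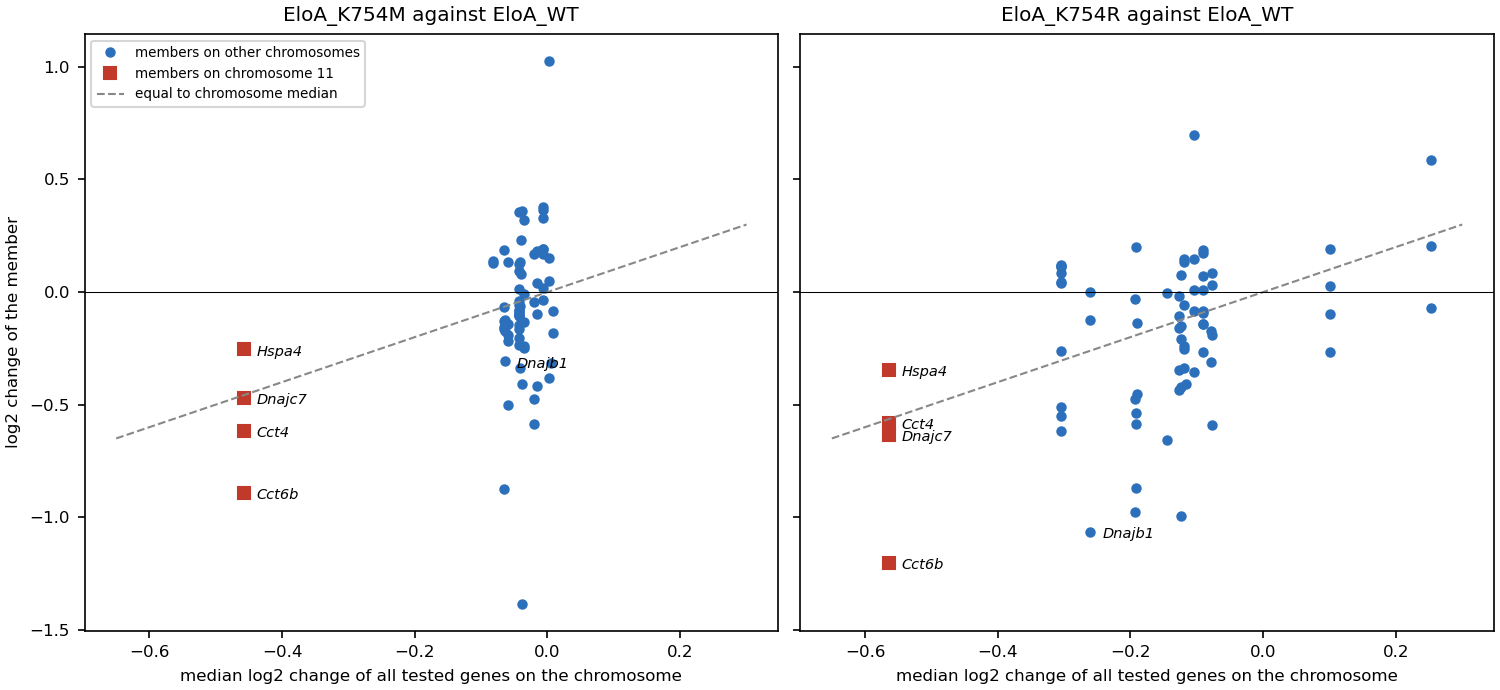
Log2 change of each tested member (vertical axis) against the median log2 change of all tested genes on its chromosome (horizontal axis), in EloA_K754M (left) and EloA_K754R (right) against EloA_WT. Red squares are the 4 members on chromosome 11, at −0.46 and −0.56 on the horizontal axis, the dashed line marks a change equal to the chromosome median, and Hspa2, on at most 5 steps, is left out.

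Fibroblast markers moved with the groups. Their 16 rows summed to 20.9 and 19.1 RPKM in EloA_K754M, 23.6 and 21.4 in EloA_K754R, and 15.7 and 15.5 in EloA_WT, with 20.9 in pooled Eed_null and 21.8 in pooled CJ7_WT, and only Lum was at 0, in EloA_WT replicate 1. The 14 tested had positive changes against EloA_WT in both mutants (medians 0.38 and 0.47), with 0 and 1 called. Whether fibroblasts add to the values of any member was not tested. In bulk libraries, fewer cells of a type and less RNA per cell cannot be told apart.

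The mutants share their EloA_WT libraries, so likeness between those comparisons has no value as a repeat. Set side by side, 19 members lay below EloA_WT without overlap in both mutants, namely Cct4, Cct6a, Cct6b, Cct7, Hspa2, Hspa8, Hspa13, the Hspa14 row ENSMUSG00000079615, Hspa4, Hspb6, Hspb8, Bag3, Dnaja3, Dnajb1, Dnajb9, Dnajc7, Dnajc16, Dnajc18 and Dnajc28, and Dnajc13, Dnajc15 and Hspa4l lay above in both. Of all genes 18.8% lay below in both and 7.64% above in both. Another 3 members lay apart from EloA_WT in opposite directions in the mutants, as did 4.5% of all genes. Set directly against each other, EloA_K754M and EloA_K754R had no called member, against 0.29% of all genes (0.112% higher and 0.178% lower; limma, adjusted p under 0.05), and 8 members had an unadjusted p under 0.05 (10.8%, against 18.5%). Differences were negative for 32 members (43.2%), against 39.4% of all genes. Both EloA_K754M libraries lay above both EloA_K754R libraries for 19 members (25.7%), against 31.9% of all genes, and below for 12 (16.2%), against 18.6%.

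Dnajb1 was nearest to a call between the mutants, at 4.53 and 4.31 RPKM in EloA_K754M and 2.45 and 2.70 in EloA_K754R (0.76, SE 0.11, adjusted p = 0.0697). Dnajc4 stood at 0.789 and 0.882 RPKM in EloA_K754M and 0.437 and 0.483 in EloA_K754R (0.74, adjusted p = 0.106). Hspb8 differed the other way, at 1.71 and 1.47 RPKM in EloA_K754M and 2.73 and 2.26 in EloA_K754R (−0.62, adjusted p = 0.123). These 3 genes did not overlap between the mutants. Hsp90aa1 stood at 14.6 and 20.4 RPKM in EloA_K754M and 12.1 and 11.6 in EloA_K754R (0.54, adjusted p = 0.216), and Hsp90ab1, Hspa8, Hspd1 and Hspe1 had differences of 0.59, 0.21 (negative with quantile normalization), −0.44 and 0.17. Hsf1, Hsf2, Hsph1 and Bag3 had differences of −0.13, −0.22, −0.07 and 0.07, and Dnaja1, Dnaja2 and Hspa4 of 0.06 (negative with equal medians), −0.05 and 0.09 (negative with quantile normalization). In the other families the largest were 1.15 for Hspa2, 1.22 for Hspb2, 0.75 for Dnajc12, 0.40 for Bag5, 0.27 for Bag6, 0.39 for Dnajb13, −0.33 for Hspa4l, 0.31 for Cct6b, −0.22 for Cct8 and −0.23 for the Hspa14 row ENSMUSG00000079615. Their smallest adjusted p was 0.332.

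Eed_null was set against CJ7_WT to ask which genes change without Polycomb repressive complex 2, and with 1 pooled column each the ratios have no replicate check. Most members stood within 1.5-fold. Of the 73 compared, 6 were more than 1.5-fold higher in Eed_null (16% of all genes were) and 0 more than 1.5-fold lower (5.37% of all genes), both on RPKM + 0.1. More than 2-fold higher were 3, against 6.12% of all genes, and more than 2-fold lower 0, against 1.67%. With a pseudocount of 0.5 RPKM, 2 members were more than 1.5-fold higher (6.24% of all genes) and none more than 2-fold (1.30%). The median log2 ratio was 0.13, against 0.11 for all 14890 genes.

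Hspa12a, an atypical Hsp70 of low level in these cells, had the largest ratio, at 0.591 RPKM in Eed_null and 0.128 in CJ7_WT (log2 ratio 1.60), on 1409 steps in Eed_null and 365 in CJ7_WT. The ratio of RPKM was 4.62, with a 95% counting interval of 3.93 to 5.48, taken on 1 step in 2. The Eed_null value was also above all 6 Elongin A libraries, at 0.0722 to 0.129 RPKM. Hspa12a overlaps Eno4 on the opposite strand, and the strand handling is not given in the sources used here. Hspa4l stood at 0.413 RPKM in Eed_null and 0.151 in CJ7_WT (1.03, interval of the ratio 2.24 to 3.35), and Hspb11, a protein of intraflagellar transport, at 0.296 RPKM in Eed_null and 0.110 in CJ7_WT (0.92, 2.19 to 3.37). Bag5 stood at 1.34 RPKM in Eed_null and 0.561 in CJ7_WT (1.13) with a wider interval, 1.3 to 4.57, and Dnaja4 at 0.452 RPKM in Eed_null and 0.261 in CJ7_WT (0.61, 1.31 to 2.32).

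The lowest ratios were smaller in size. Cct6b stood at 0.142 RPKM in Eed_null and 0.235 in CJ7_WT (−0.47), Bag4, a cofactor of Hsp70, at 1.93 RPKM in Eed_null and 2.69 in CJ7_WT (−0.46) and Dnajb13 at 0.311 RPKM in Eed_null and 0.458 in CJ7_WT (−0.44). Dnajc9, which binds histones, stood at 2.07 RPKM in Eed_null and 2.78 in CJ7_WT (−0.41), and Dnajb14 at 0.805 RPKM in Eed_null and 1.10 in CJ7_WT (−0.40). The intervals of the RPKM ratio lay under 1 for these 5, from 0.515 to 0.705 for Cct6b to 0.584 to 0.954 for Dnajc9. In all, intervals lay above 1 for 27 of the 73 members and below 1 for 16, against 37.9% and 22.1% of all genes. Hsf1 stood at 2.46 RPKM in Eed_null and 2.41 in CJ7_WT, Hspa8 at 51.1 RPKM in Eed_null and 46.1 in CJ7_WT, Hsp90aa1 at 7.21 RPKM in Eed_null and 6.51 in CJ7_WT, and Hspd1 at 12.5 RPKM in Eed_null and 13.8 in CJ7_WT.

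**Figure D4:**
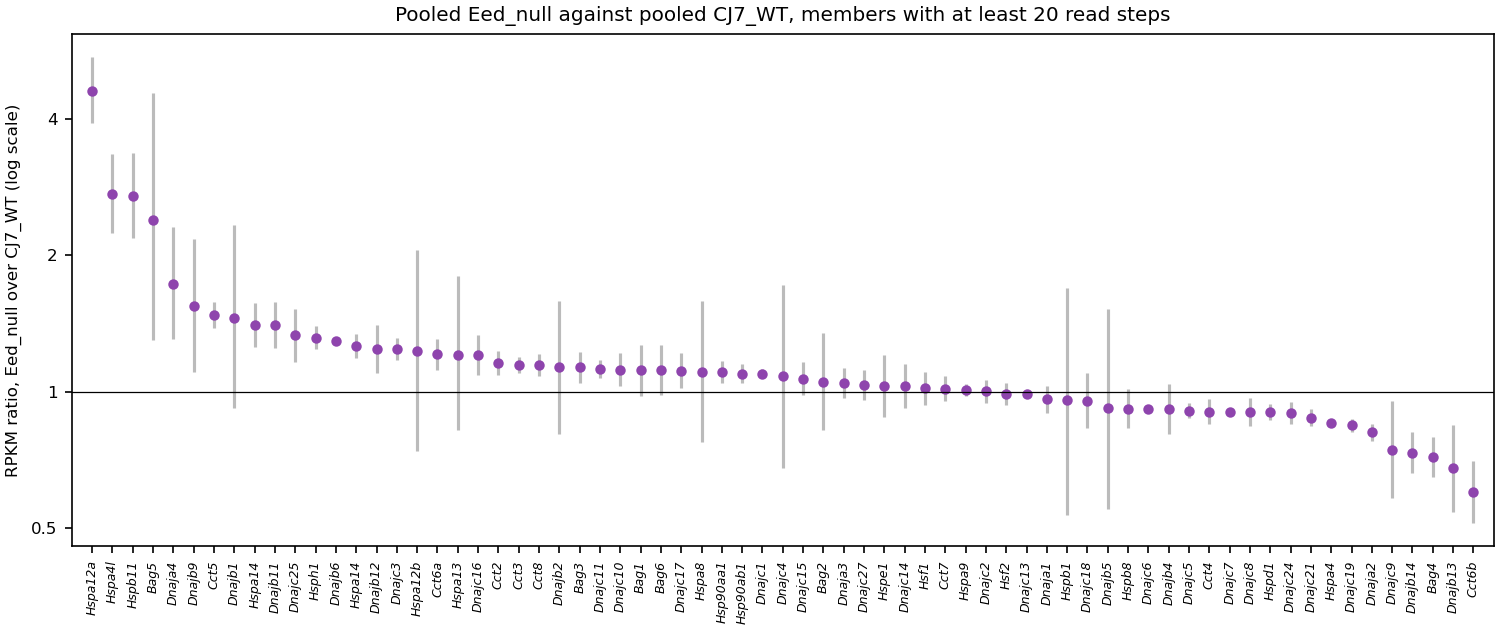
Ratio of RPKM in pooled Eed_null over pooled CJ7_WT (vertical axis, log scale) for members with at least 20 read steps in the larger column, in falling order, with 95% counting intervals (grey lines). Hspa12a has the largest ratio at 4.62 and Cct6b the smallest at 0.603.

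In most families the median member stood lower in the pooled columns than in the Elongin A libraries, and so did the median of all genes, at 0.918 times the mean of the 6 in Eed_null and 0.859 times in CJ7_WT. CJ7_WT lay below all 6 Elongin A libraries for 34 of 74 members (45.9%), against 33% of all genes, and above them for 13 (17.6%), against 17.5%. Eed_null lay below all 6 for 26 (35.1%), against 29.3% of all genes, and above for 16 (21.6%), against 24.3%, and 23 members were below in both columns, against 21.9%. The 34 hold 6 of 8 CCT genes, both Hsp90 genes, both mitochondrial chaperonin genes, 2 of 3 Hsp110 genes and 4 of 7 tested Hsp70 genes. Hsp90aa1 was at 7.21 RPKM in Eed_null and 6.51 in CJ7_WT, against 11.6 to 20.4 in the 6 libraries. Hsph1 was at 3.99 in Eed_null and 3.03 in CJ7_WT, against 6.53 to 10.9 in the 6, and Dnajb1 at 1.76 in Eed_null and 1.21 in CJ7_WT, against 2.45 to 5.68 in the 6, so that all Elongin A libraries, EloA_K754R included, lay above both pooled columns.

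BAG genes went the other way in part. Bag3 was at 2.99 RPKM in Eed_null and 2.64 in CJ7_WT, above the 6 libraries at 1.47 to 2.23, and Hsf1 at 2.46 in Eed_null and 2.41 in CJ7_WT, above 1.68 to 1.91. Hsf2 lay below them, at 2.41 in Eed_null and 2.44 in CJ7_WT, against 2.95 to 3.95. The median ratio of CJ7_WT to the mean of the 6 libraries was 0.478 for the Hsp90 genes, 0.647 for CCT genes, 0.925 for DNAJC genes and 1.10 for BAG genes. Intron length moved with this ratio over all genes, at a median of 0.621 in the shortest of 4 equal length classes (up to 5187 bases) and 1.05 in the longest. The member medians in those classes were 0.725 for 17 members and 0.859 for 9. No group has libraries in both sets, so line, Elongin A edit, pooling and library making cannot be told apart here.

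**Figure D5:**
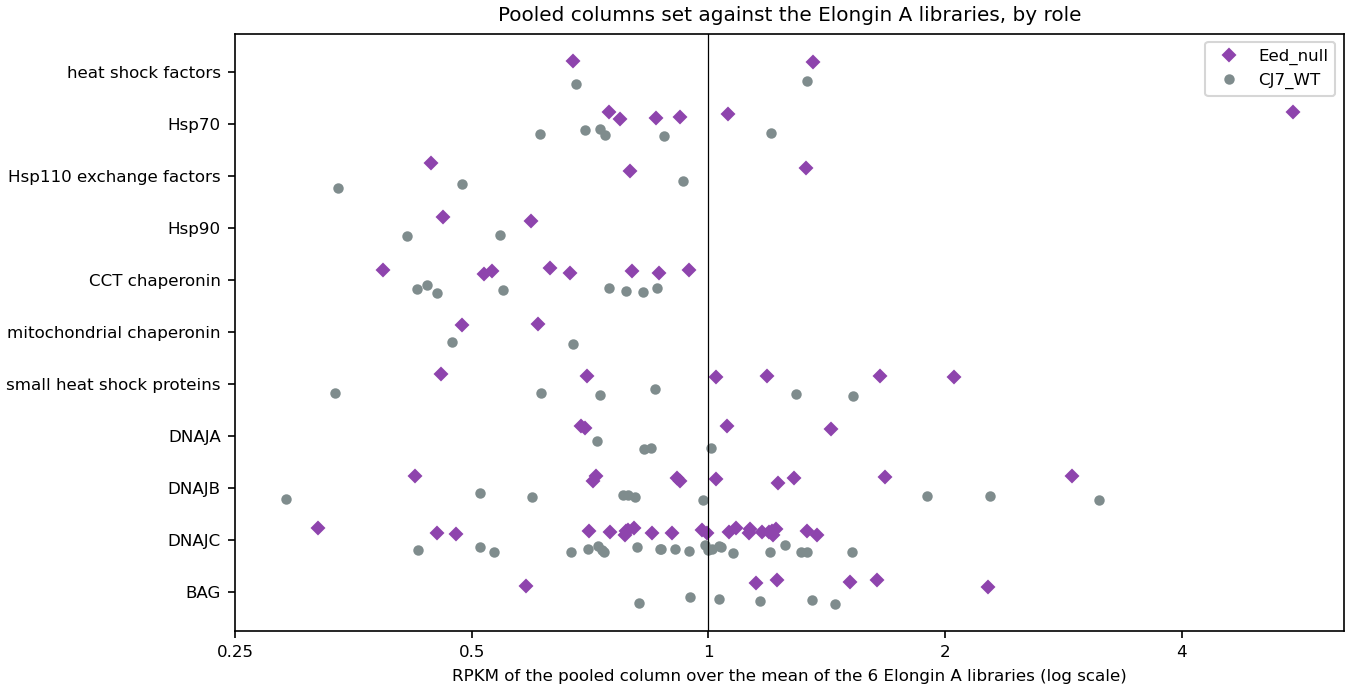
RPKM of the pooled Eed_null (diamonds) and CJ7_WT (dots) columns over the mean of the 6 Elongin A libraries (horizontal axis, log scale) for tested members by role. Both Hsp90 and both mitochondrial chaperonin genes lie left of 1 in both columns, and the median CJ7_WT ratio of BAG genes is 1.10; Hspa2, at 0 in both columns, is not drawn.

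Other genes of protein folding, 51 tested of 53 listed, were read beside the members. They comprised Hsp90 and Hsp70 cochaperones, Tcp1 with CCT partners and prefoldin, mitochondrial chaperones and proteases, and partners or targets of the heat shock factors. None was called in EloA_K754M (0.218% of all genes were) and 1 was called lower in EloA_K754R (2.79% of all genes were). At an unadjusted p under 0.05 stood 4 and 12 of the 51, against 15.4% and 25.1% of all genes. Median changes were −0.12 and −0.24, against −0.06 and −0.14 for all genes. The gene called was Ubb, a stress-inducible polyubiquitin gene on chromosome 11, where the median change in EloA_K754R was −0.56. It stood at 3.00 and 3.11 RPKM in EloA_K754R and 6.44 and 5.31 in EloA_WT (−0.91, limma adjusted p = 0.0364). In EloA_K754M it stood at 2.94 and 2.86 RPKM (−0.99, adjusted p = 0.0724).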

How the data were processed

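The authors deposited 1 table of intronic RPKM for 24901 genes, with 6 libraries and 2 pooled columns. The submitters' processing notes name BWA and mm9, and the sources used here do not give the counter, annotation, strand handling or depth. RPKM of a gene were whole multiples of 1 step (within 0.02 of a step) for 20816 of 20817 genes with at least 6 columns above 0.

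In R 4.3.3 with limma 3.58.1, log2 of RPKM + 0.1 was fitted (lmFit, contrasts.fit, eBayes with trend) for the 15161 genes whose mean over the 6 libraries reached 0.1 RPKM, with 3 groups in 1 fit, 3 residual degrees of freedom and no replicate block. Tests were two-sided and p-values adjusted by Benjamini-Hochberg over every gene in the fit, with a threshold of 0.05 and "fell" or "called" used for adjusted p under it. Hspa1l, Hspa12b and Dnajc22 were under the filter. Ratios of Eed_null over CJ7_WT are without a test, and intervals are exact at 95% (scipy 1.17.1). Alternatives were another pseudocount (0.5), no filter, a mean of 0.5 RPKM, equal library medians, quantile normalization, 2 groups alone, a replicate block, leaving out each library, voom on recovered steps, and values relative to the chromosome median.

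Chromosomes came from GENCODE M21 and promoters from RefSeq (GRCm38.p6). The named genes are members called, up to 2 members with the largest change in each family and comparison, 10 fixed members (Hsf1, Hsf2, Hspa8, Hsph1, Hsp90aa1, Hsp90ab1, Hspd1, Hspe1, Bag3 and Dnajb1) and the 5 largest Eed_null ratios each way. Others were named after their values were seen. Members and lists were chosen with earlier results of these data known.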

Additional observations from a re-analysis of the deposited data

Results flagged for a closer look

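For 3 members the EloA_K754M libraries lay on one side of both EloA_WT libraries and the EloA_K754R libraries on the other, as for 4.5% of all genes. Dnajb14 stood at 0.527 and 0.562 RPKM in EloA_K754M, 0.433 and 0.430 in EloA_K754R and 0.493 and 0.435 in EloA_WT, and the difference between the mutants was 0.28 on the log2 scale (limma, adjusted p = 0.404). Dnajc24, which serves diphthamide synthesis, stood at 2.17 and 2.09 RPKM in EloA_K754M, 1.72 and 1.78 in EloA_K754R and 2.05 and 1.84 in EloA_WT (0.27, adjusted p = 0.297). Hspb7 stood at 0.0769 and 0.112 RPKM in EloA_K754M, 0.140 and 0.156 in EloA_K754R and 0.117 and 0.139 in EloA_WT (−0.35, adjusted p = 0.488), on between 2 and 6 steps a library. None of these differences passed the test.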

How the results depend on the processing

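The number of members called depended on the spread used. The lower calls in EloA_K754R numbered 1, and 0 with only the 2 groups compared and relative to the chromosome median, 0 to 0 without each library in turn, 5 with voom (and 1 higher) and 9 with the replicate block (Cct4, Cct6b, Dnajb1, Dnajc4, Dnajc7, Dnajc8, Dnajc16, Hspa2 and Hspb6; 12.2%, against 11.7% of all genes). In EloA_K754M they numbered 0, and 2 with the replicate block (Hspb6 and Hspb8) and 2 with voom. All genes called in EloA_K754M numbered 33, and 227 with the replicate block. Between the mutants the replicate block called 1 higher, Dnajb1 (limma adjusted p = 0.0470), or 1.35% of members, against 2.34% of all genes. Nothing in the labels says that replicate numbers pair the libraries; same-numbered libraries correlated in their deviations from group means at 0.166, 0.197 and 0.152 over 15161 genes. The median member change in EloA_K754R was 0.054 with quantile normalization. With a pseudocount of 0.5 RPKM the log2 ratios of Eed_null over CJ7_WT were 0.80 for Hspa12a, 0.80 for Bag5 and 0.49 for Hspa4l, the members more than 2-fold higher. The cause of these differences was not tested, except that fits without a library or with 2 groups have fewer residual degrees of freedom.

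Many members changed sign. Of 74 tested members, 48 had negative changes in EloA_K754M and 32 with equal library medians. In EloA_K754R these numbers were 50 and 31. Only sign changes among the members named by the rule above are listed below, in log2 change. With equal library medians these were Hsp90aa1 (0.081), Hsf1 (0.064) and Hspe1 (0.031) in EloA_K754M, Hsf2 (0.17) and Hsph1 (0.14) in EloA_K754R and, between the mutants, Dnaja1 (−0.0068). With quantile normalization they were Hsp90aa1 (0.055) and Hsf1 (0.073) in EloA_K754M, Hsf2 (0.15), Hsp90ab1 (0.078) and Hsph1 (0.14) in EloA_K754R and, between the mutants, Hspa8 (−0.22), Hspa4 (−0.16) and Dnaja1 (−0.053). Relative to the chromosome median they were Dnajc7 (0.035), Hspa4 (0.25), Hsp90aa1 (0.026), Hsf1 (0.015) and Hsph1 (0.043) in EloA_K754M, Cct4 (0.042), Hsf2 (0.18), Hspa4 (0.28), Hspd1 (−0.015), Dnaja1 (0.10) and Hsph1 (0.15) in EloA_K754R and, between the mutants, Hspa4 (−0.028), Dnaja1 (−0.26) and Bag3 (−0.15). Without each library in turn, the change in EloA_K754M ran from −0.29 to 0.19 for Hsp90aa1, −0.39 to 0.67 for Hsp90ab1, −0.43 to 0.029 for Dnaja1, −0.50 to 0.24 for Hsph1 and −0.27 to 0.082 for Hspe1. In EloA_K754R it ran from −0.96 to 0.28 for Hspb1, −0.071 to 0.033 for Hsf2, −0.12 to 0.17 for Hspd1 and −0.16 to 0.050 for Hsph1. Between the mutants it ran from −0.17 to 0.29 for Dnaja1, −0.032 to 0.17 for Bag3, −0.047 to 0.67 for Cct6b, −0.44 to 0.29 for Hsph1, −0.0057 to 0.19 for Hspa4 and −0.15 to 0.063 for Dnaja2.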
